A study of Juglans regia with 21 samples.

Results

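The genes described here are 9 of the 31425 genes in the table of the walnut (Juglans regia) pellicle, the thin seed coat around the kernel. They were chosen by Gene_ID, as the copies of LATE ELONGATED HYPOCOTYL (LHY), REVEILLE 6, REVEILLE 8, LNK2 and LNK3 named by NR or Swiss-Prot, and for their read counts over the stages of pellicle development. Those same counts are given below, so the levels of the 9 genes are a description, with no test. Pellicles of the cultivar Xinwen179, grown in a field, were collected in 7 stages named by their weeks from pollination: 8W, 9W, 11W, 13W, 15W, 17W and 19W. Each stage has 3 libraries, 21 in all. All groups share the cultivar and the tissue, and differ by the labels only in age. Poly(A) RNA was sequenced from stranded paired-end libraries, and total counts ran from 13144713 to 17878761 reads per library. Nothing in the labels tells if replicate libraries stem from different trees. A p-value here therefore sets a difference between stages against only the spread of replicate libraries, and that spread may be technical.

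The circadian clock is a set of transcription factors that switch one another on and off over a day. In Arabidopsis, LHY and its relative CCA1 are MYB-related proteins made around dawn that repress genes of the evening. REVEILLE 8 and REVEILLE 6 are MYB-related relatives of LHY that activate evening genes instead, and the LNK proteins, which bind no DNA themselves, are their coactivators. All these roles are known from Arabidopsis, and the walnut genes carry these names only as NR or Swiss-Prot matches in the deposited table. In Arabidopsis these transcripts swing over each day, and the labels give a week for each sample but no hour of collection, so stage and hour of day cannot be told apart in any value below. The name "morning" could not be checked against these samples for the same reason.

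The 9 genes lie on 7 chromosomes of the deposited annotation, whose genome build is not given in the sources used here. LHY has a copy at 1D:13851926-13862037 on the plus strand (Jr1DG00089700), with a deposited gene length of 3608 bases. On 1S, also on the plus strand, 2 gene models carry the name: Jr1SG00053700 at 1S:8575975-8577510, with a length of 527 bases, and Jr1SG00053800 at 1S:8579031-8588583, with a length of 2911 bases. They are 1520 bases apart with 0 genes between them. Together they have 3438 bases, near the 3608 bases of the 1D copy. The first model is named CCA1 by Swiss-Prot and LHY by NR, and carries the Pfam family PF00249, the Myb-like DNA-binding domain. Whether the models are parts of 1 gene was not tested.

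REVEILLE 6 has copies at 3D:38200779-38203584 on the plus strand (Jr3DG00241000, length 849 bases) and 3S:476128-485621 on the minus strand (Jr3SG00003200, length 1594 bases). REVEILLE 8 lies at 5D:27441414-27445358 on the minus strand (Jr5DG00172600, length 1328 bases) and also carries PF00249. LNK2 has copies at 7D:1039129-1044639 (Jr7DG00011100, length 2608 bases) and 7S:810398-815808 (Jr7SG00008900, length 2410 bases), both on the plus strand. The listed LNK3 lies at 3S:9903951-9909131 on the minus strand (Jr3SG00066200, length 1419 bases). How reads of near-identical copies were counted is not given in the sources used here, so reads may have been split between copies, and each copy's own level is uncertain to that extent. All 9 genes passed the filter on low counts, with 5146 reads over all libraries for REVEILLE 6 on 3S up to 41004 reads for LNK3 on 3S.

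The LHY genes were low at 8W, 11W and 17W and high at 9W, 13W and 19W, and LNK3 on 3S was high at 9W and 13W alone, with a far wider range. Mean scaled CPM differed between the highest and the lowest stage by 17.5-fold for LHY on 1D, 16.9-fold for the second 1S model, 18.4-fold for the first 1S model and 203-fold for LNK3 on 3S. The range was 4.73-fold for REVEILLE 8, 4.12-fold for LNK2 on 7S, 3.38-fold for LNK2 on 7D, 2.94-fold for REVEILLE 6 on 3D and 2.22-fold for REVEILLE 6 on 3S. The median of the 9 was 4.73-fold, beside 2.98-fold over the 20861 tested genes with reads at every stage. Of those genes, 12.3% had a range at least as wide as LHY on 1D, 1.66% at least as wide as LNK3 on 3S, and 68.3% at least as wide as REVEILLE 6 on 3S. Which stage ranked highest was not firm for the first 1S model, LNK2 on 7S and REVEILLE 8, whose top stages overlapped: with library sizes alone it was 9W for all of them. In bulk RNA, fewer cells that express a gene and less RNA per cell cannot be told apart.

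**Figure D1:**
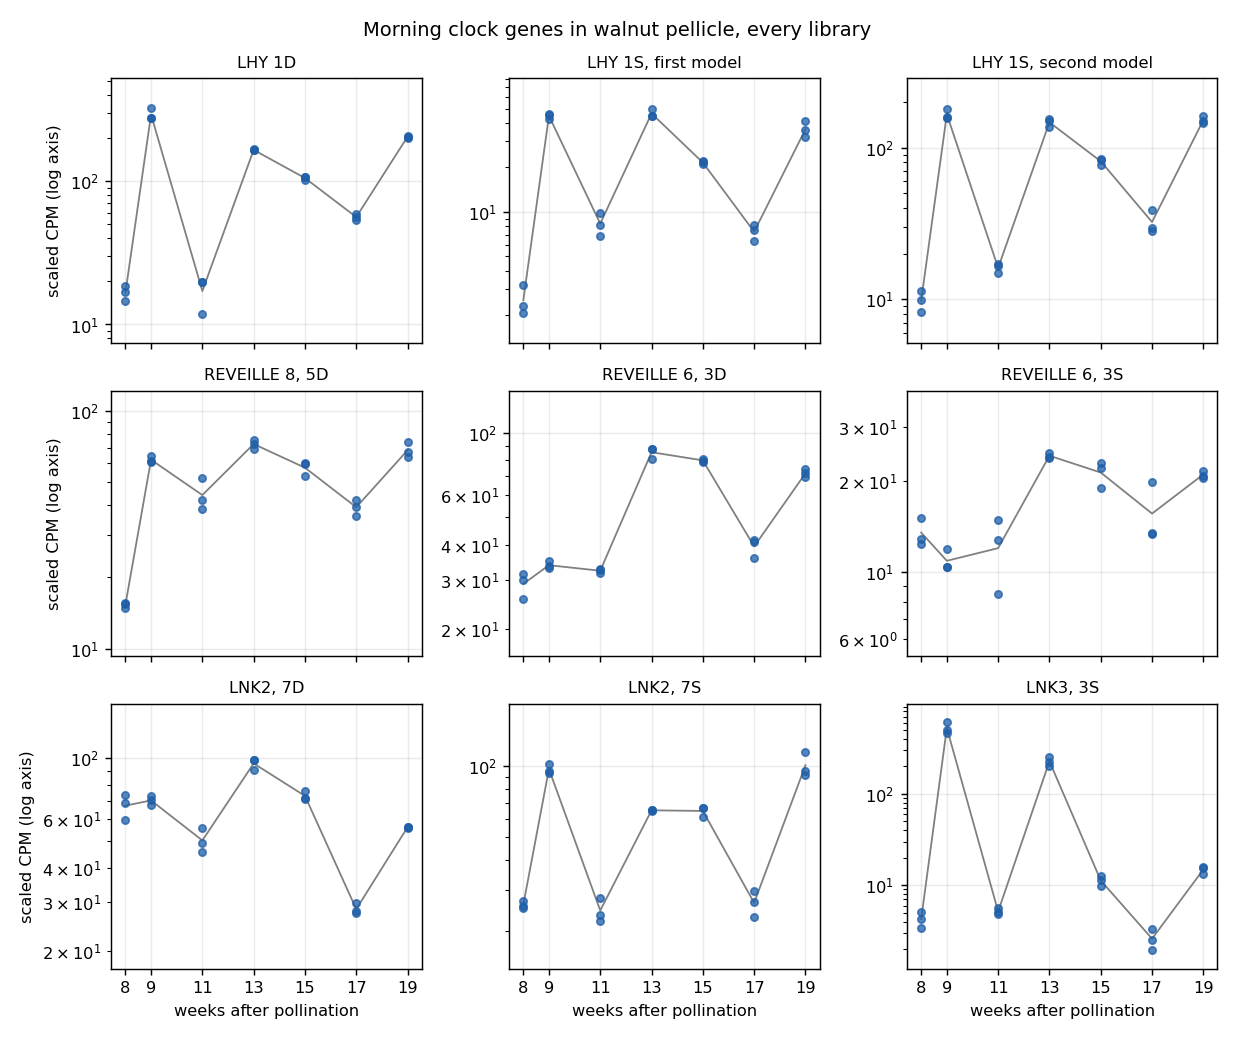
Scaled CPM (log axis) of each of the 9 genes against weeks after pollination, with 1 point per library and a line through the means of 3 libraries. LHY on 1D stands at means of 291 (9W), 165 (13W) and 204 CPM (19W), and of 16.6 (8W), 17.1 (11W) and 56.1 CPM (17W).

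LHY, the morning repressor, was highest on 1D at 9W. The 1D copy (Jr1DG00089700) had 18.4, 16.9 and 14.6 CPM (8W), 274, 325 and 274 CPM (9W), 19.7, 19.9 and 11.8 CPM (11W), 165, 164 and 167 CPM (13W), 106, 102 and 106 CPM (15W), 58.7, 53.2 and 56.4 CPM (17W), and 207, 200 and 204 CPM (19W). In order of level the stages ran 9W, 19W, 13W, 15W, 17W, 11W and 8W, and only 11W and 8W overlapped among neighbours in that order. The log2 difference was 4.13 (SE 0.129) for 9W against 8W and -4.08 (SE 0.13) for 11W against 9W. It was 3.27 (SE 0.127) for 13W against 11W and 1.86 (SE 0.116) for 19W against 17W.

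The steps down after 13W were smaller, with log2 differences of LHY on 1D of -0.66 (SE 0.111) for 15W against 13W and -0.90 (SE 0.115) for 17W against 15W. The lowest library of all, at 11.8 CPM, was 11W library 3, whose 2 companions lay at 19.7 and 19.9 CPM. The spread within a stage was otherwise narrow: the SD over 3 libraries was 1.65 CPM on a mean of 165 CPM at 13W, against 4.63 CPM on a mean of 17.1 CPM at 11W.

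The second 1S model of LHY (Jr1SG00053800) had 11.4, 9.81 and 8.17 CPM (8W), 158, 179 and 160 CPM (9W), 17.0, 16.5 and 14.9 CPM (11W), 137, 154 and 151 CPM (13W), 76.7, 83.1 and 84.3 CPM (15W), 38.8, 29.7 and 28.4 CPM (17W), and 162, 150 and 145 CPM (19W). Its 9W libraries overlapped those of 19W, and its 19W libraries overlapped those of 13W, while 9W lay above 13W. Unlike the 1D copy, its 11W libraries did not overlap those of 8W, at means of 16.1 ± 1.11 CPM (11W) and 9.80 ± 1.62 CPM (8W; SD, n = 3 each).

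The short first 1S model (Jr1SG00053700) had 2.06, 3.19 and 2.30 CPM (8W), 42.9, 45.2 and 46.1 CPM (9W), 9.91, 6.89 and 8.20 CPM (11W), 44.4, 44.7 and 50.1 CPM (13W), 22.0, 21 and 21.9 CPM (15W), 6.38, 7.49 and 8.14 CPM (17W), and 41.1, 32.3 and 35.6 CPM (19W). Its 13W and 9W libraries overlapped, as did those of 11W and 17W. Its 8W values rest on 34, 50 and 40 reads. It held 20.6% ± 4.75 of the reads of both 1S models (8W), 21.3% ± 1.11 (9W) and 19.2% ± 1.30 (19W), but 34.0% ± 3.92 (11W; SD, n = 3).

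Set against each other per kb of gene length, the LHY copies on 1D and 1S (both models summed) differed in order between stages. LHY on 1D had 80.6 ± 8.17 CPM per kb at 9W, and LHY on 1S had 61.3 ± 3.55 (SD, n = 3 each). At 19W and 15W neither copy led in every library or by more than the spread: LHY on 1D had 56.4 ± 0.867 CPM per kb at 19W and 29.1 ± 0.726 at 15W, and LHY on 1S had 54.9 ± 3.68 at 19W and 30 ± 1.13 at 15W. At 13W and 11W the order was turned: LHY on 1D had 45.8 ± 0.457 CPM per kb at 13W and 4.75 ± 1.28 at 11W, and LHY on 1S had 56.4 ± 3.18 at 13W and 7.11 ± 0.623 at 11W. By reads, the 1D copy held 57.5% ± 0.858 of the LHY reads (8W), 57.9% ± 1.08 (9W), 40.7% ± 6.23 (11W), 46.0% ± 1.38 (13W), 50.5% ± 1.26 (15W), 58.7% ± 2.10 (17W) and 51.9% ± 1.35 (19W; SD, n = 3).

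REVEILLE 8 (Jr5DG00172600), the activator of evening genes, was lowest at 8W and varied less than LHY after it. It had 15.5, 15.4 and 14.9 CPM (8W), 61.3, 64.3 and 60.9 CPM (9W), 38.5, 42.2 and 51.9 CPM (11W), 69.0, 72.5 and 75.5 CPM (13W), 60.2, 59.6 and 53.1 CPM (15W), 36.2, 39.4 and 42.1 CPM (17W), and 74.0, 66.9 and 63.8 CPM (19W). The 8W libraries lay below all others. Its 13W libraries overlapped those of 19W, its 19W libraries those of 9W, and its 11W libraries those of 17W. The log2 difference for 11W against 9W was -0.49 (SE 0.0885) in REVEILLE 8, where LHY on 1D had -4.08.

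REVEILLE 6, a close relative of REVEILLE 8, had no peak at 9W. The 3D copy (Jr3DG00241000) had 25.7, 30.0 and 31.4 CPM (8W), 33.6, 34.9 and 32.9 CPM (9W), 31.6, 32.5 and 32.7 CPM (11W), 80.5, 87.8 and 87.4 CPM (13W), 80.9, 79.5 and 78.6 CPM (15W), 40.7, 35.8 and 41.6 CPM (17W), and 71.8, 74.0 and 69.3 CPM (19W). The first 3 stages lay within 25.7 to 34.9 CPM, and the libraries of 13W, 15W and 19W all lay above 69 CPM. Its log2 difference was 1.40 (SE 0.0736) for 13W against 11W, but 0.22 (SE 0.0747) for 9W against 8W. The 3S copy (Jr3SG00003200) had means of 13.5, 10.9, 12.0, 24.2, 21.3, 15.6 and 21 CPM from 8W to 19W, with single libraries between 8.46 and 24.7 CPM. Its 13W libraries lay above all others, and those of 17W, 8W, 11W and 9W overlapped from neighbour to neighbour. At 17W its libraries had 13.5, 13.4 and 19.8 CPM, so library 3 stood near the 15W level. The 3D copy held between 68.3% ± 1.45 (8W) and 78.9% ± 1.41 (15W) of the REVEILLE 6 reads (SD, n = 3 each).

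LNK2, a coactivator that in Arabidopsis works with REVEILLE proteins, had copies with different profiles. The 7D copy (Jr7DG00011100) had 68.7, 59.8 and 73.3 CPM (8W), 67.5, 72.8 and 70.5 CPM (9W), 45.6, 49.3 and 56.0 CPM (11W), 98.6, 98.4 and 90.4 CPM (13W), 75.9, 71.4 and 71.8 CPM (15W), 27.5, 27.8 and 29.8 CPM (17W), and 55.9, 56.4 and 56.3 CPM (19W). Its 13W libraries lay above and its 17W libraries below all others, and 15W, 9W and 8W overlapped. The 7S copy (Jr7SG00008900) had 27, 25.6 and 25.2 CPM (8W), 93.7, 102 and 95.8 CPM (9W), 27.8, 23.4 and 22.2 CPM (11W), 64.8, 65.0 and 65.4 CPM (13W), 66.5, 60.9 and 66.6 CPM (15W), 26.7, 29.7 and 22.9 CPM (17W), and 115, 92.1 and 95.9 CPM (19W). It fell into 3 levels that did not overlap, with 19W and 9W on top, 13W and 15W in the middle, and 17W, 8W and 11W at the bottom. For 9W against 8W the log2 difference was 1.91 (SE 0.0934) in the 7S copy and 0.06 (SE 0.0754) in the 7D copy.

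The share of LNK2 reads held by the 7D copy was 72.1% ± 2.22 (8W), 41.9% ± 0.442 (9W), 67.2% ± 4.77 (11W), 59.5% ± 1.29 (13W), 53.0% ± 1.06 (15W), 51.9% ± 4.26 (17W) and 35.9% ± 2.75 (19W; SD, n = 3). Thus the 7D copy gave most of the LNK2 reads in every library of 8W, 11W, 13W and 15W, and the 7S copy in every library of 9W and 19W. With the deposited FPKM in place of reads the 7D share was 70.5% ± 2.30 (8W) and 34.1% ± 2.68 (19W). At 15W it was then 51.3%, 52% and 49.9% in libraries 1 to 3, so the 7D copy did not lead in library 3.

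**Figure D2:**
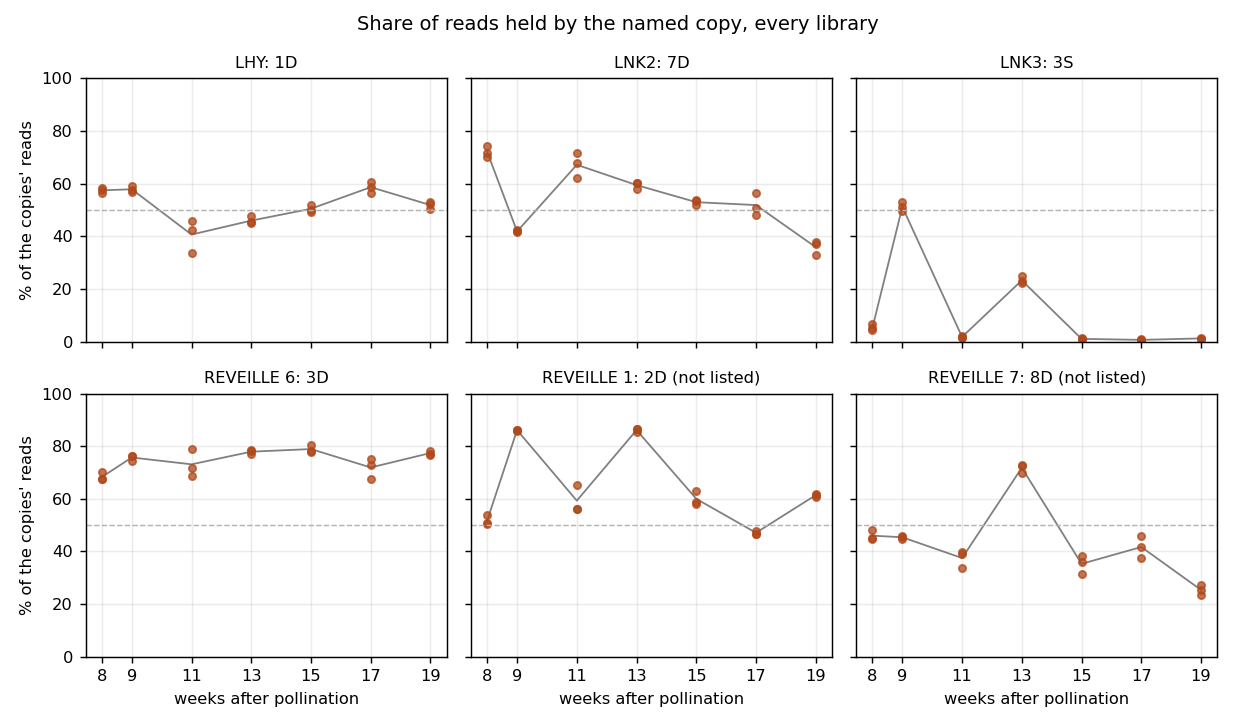
Share of the reads of a gene held by the named copy (% of the copies' reads, axis 0 to 100) against weeks after pollination, with 1 point per library, a line through the means of 3 libraries and a dashed line at equal shares. The LNK2 7D share lies at 72.1% (8W) and 35.9% (19W), and the LNK3 3S share at 51.2% (9W) and 0.699% (17W).

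LNK3 on 3S (Jr3SG00066200), named after another member of the LNK family, had the widest range of the 9 genes. It had 5.16, 4.27 and 3.40 CPM (8W), 507, 607 and 468 CPM (9W), 4.82, 5.64 and 5.06 CPM (11W), 205, 223 and 256 CPM (13W), 11.4, 9.77 and 12.7 CPM (15W), 3.31, 1.95 and 2.55 CPM (17W), and 16.0, 13.3 and 15.5 CPM (19W). Every library of 9W and 13W had more than 200 CPM, and no library of the other 5 stages had more than 16.0 CPM. The 17W values rest on 43, 24 and 36 reads. The log2 difference was 6.95 (SE 0.153) for 9W against 8W, -6.67 (SE 0.151) for 11W against 9W and 5.46 (SE 0.147) for 13W against 11W. At 15W against 13W, where LHY on 1D differed by -0.66, LNK3 on 3S differed by -4.34 (SE 0.135), with 11.3 ± 1.46 CPM in 15W libraries and 228 ± 25.6 CPM in 13W libraries (SD, n = 3 each).

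A second LNK3 gene on 7S (Jr7SG00012200) is not among the 9 genes. It had means of 75.4, 499, 289, 748, 1022, 367 and 1175 CPM from 8W to 19W. LNK3 on 3S therefore held 5.36% ± 1.08 of the reads of both LNK3 genes (8W), 51.2% ± 1.77 (9W), 1.82% ± 0.442 (11W), 23.3% ± 1.34 (13W), 1.09% ± 0.147 (15W), 0.699% ± 0.155 (17W) and 1.26% ± 0.127 (19W; SD, n = 3). Summed over both genes, LNK3 had 1026 ± 104 CPM in 9W libraries and 1190 ± 78.9 CPM in 19W libraries (SD, n = 3 each), so the stage at which the 3S gene alone had 14.9 CPM was not low in LNK3 as a whole.

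Per kb of gene length the order of the 9 genes changed with the stage. At 9W, LNK3 on 3S led with 372 ± 50.5 CPM per kb, ahead of the first 1S model of LHY at 84.9 ± 3.08 and LHY on 1D at 80.6 ± 8.17, which overlapped (SD, n = 3 each). At 8W, REVEILLE 6 on 3D led with 34.2 ± 3.46 CPM per kb and LNK2 on 7D followed with 25.8 ± 2.64, while the LHY genes and LNK3 on 3S had 4.78 or less. REVEILLE 6 on 3D also led at 11W (38.0 ± 0.718, overlapping REVEILLE 8 at 33.3 ± 5.23), 15W (93.9 ± 1.40), 17W (46.4 ± 3.67) and 19W (84.4 ± 2.78 CPM per kb). REVEILLE 6 on 3S was last at 9W and 13W, with 6.83 ± 0.568 and 15.2 ± 0.276 CPM per kb, and LNK3 on 3S was last at 8W, 11W, 15W, 17W and 19W. These levels per kb rest on the deposited lengths, which differ between copies of the same name.

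**Figure D3:**
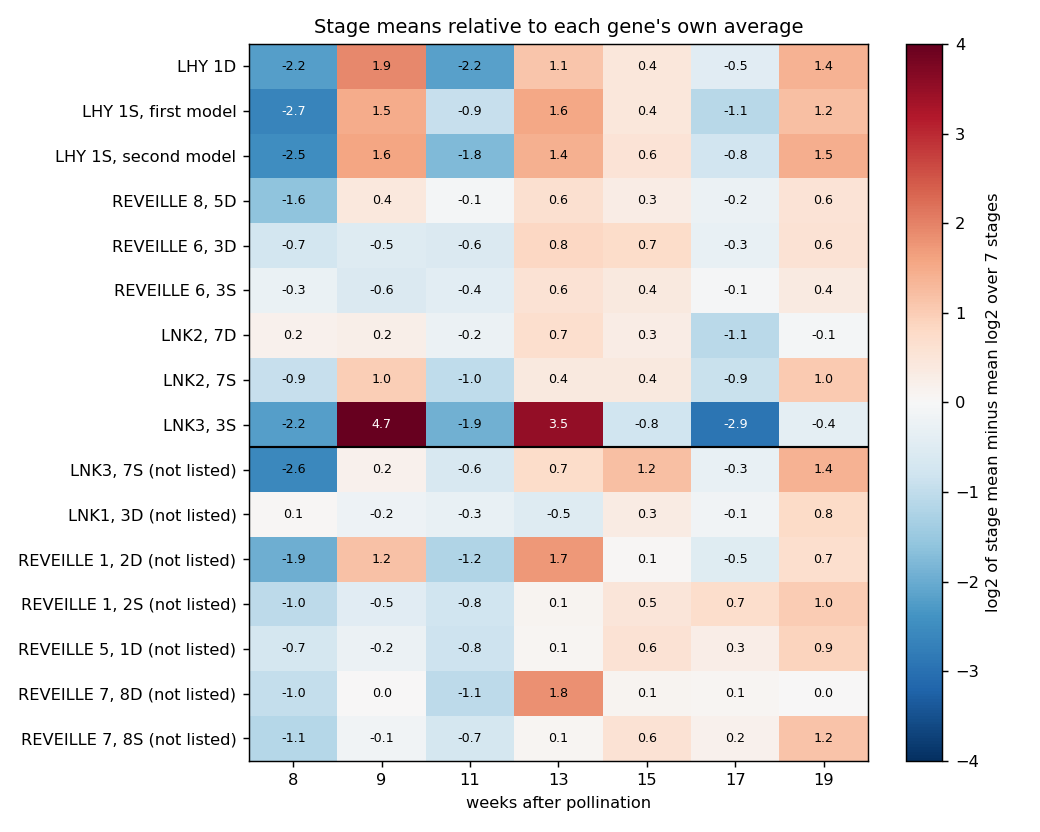
Stage means of the 9 genes (above the line) and of the 7 further REVEILLE and LNK genes (below it), as log2 of the mean of 3 libraries minus the gene's own mean log2 over 7 stages, with columns in weeks after pollination. LNK3 on 3S reaches 4.7 at 9W and -2.9 at 17W, and REVEILLE 6 on 3S stays between -0.6 and 0.6.

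Taken step by step, the 9 genes mostly moved in 1 direction at a time, and they were chosen with these counts known. At 9W against 8W, 7 of the 9 had libraries above those of 8W without overlap, beside 38.4% of all genes tested, and REVEILLE 6 on 3S lay below (34.6% of all genes). At 11W against 9W, 8 of the 9 lay below without overlap, beside 33.3% of all genes, and REVEILLE 6 on 3S overlapped. At 13W against 11W all 9 lay above (33.3% of all genes). At 15W against 13W, 7 of the 9 lay below without overlap (30.6% of all genes), and REVEILLE 6 on 3D and LNK2 on 7S overlapped. At 17W against 15W, 8 of the 9 lay below (33.3% of all genes), and REVEILLE 6 on 3S overlapped. At 19W against 17W all 9 lay above (31.3% of all genes). No sign of a difference turned round whether libraries were scaled by TMM, RLE or upper-quartile factors or by their sizes alone, but for REVEILLE 6 on 3S at 11W against 9W it was 0.15 with TMM and 0.00 with library sizes alone. With library sizes alone, the median log2 difference of all genes was -0.12 for 11W against 9W and for 13W against 11W, where TMM gave 0.02 and -0.04.

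The genes of the same families that are not among the 9 were tested with edgeR's quasi-likelihood test, with Benjamini-Hochberg adjustment over all 21707 genes. They are LNK3 on 7S, LNK1 (Jr3DG00034900), REVEILLE 1 on 2D and 2S (Jr2DG00070000, Jr2SG00047100), REVEILLE 5 (Jr1DG00068400) and REVEILLE 7 on 8D and 8S (Jr8DG00143900, Jr8SG00098100). All 7 differed over the 7 stages, as did 97.7% of all genes tested. At 9W against 8W, 6 rose and 1 fell (34.4% and 31.1% of all genes), and at 11W against 9W, 0 rose and 6 fell (34.3% and 31.6%). At 13W against 11W, 6 rose and 1 fell (32.1% and 35% of all genes). Their median log2 differences were 0.96, -0.60 and 0.91 in these 3 steps, beside 0.04, 0.02 and -0.04 over all genes. The call of a rise in REVEILLE 1 on 2D was the largest of the first step: it had 251, 264 and 235 CPM (9W), against 27.6, 28.8 and 30.4 CPM (8W), a log2 difference of 3.11 (SE 0.147, adjusted p = 1.35e-12). REVEILLE 1 links the clock to auxin in Arabidopsis.

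At 15W against 13W, 5 of the 7 rose and 2 fell (24.8% and 26.3% of all genes; median log2 difference 0.45), while none of the 9 had a higher mean. The difference between the 2 sets was not tested. The pair that fell were REVEILLE 1 on 2D, by 1.68 (SE 0.135, adjusted p = 6.92e-09), and REVEILLE 7 on 8D, by 1.70 (SE 0.0856, adjusted p = 1.32e-13), both on the log2 scale. LNK3 on 7S rose by 0.45 (SE 0.0992, adjusted p = 0.00055) in the step in which LNK3 on 3S differed by -4.34. At 17W against 15W, 1 of the 7 rose and 5 fell (29.3% and 30.8% of all genes; median -0.42), and at 19W against 17W, 6 rose and 0 fell (28.5% and 26.1%; median 0.90). In the last step REVEILLE 7 on 8D did not pass, with 33.0 ± 3.05 CPM (19W) and 34.6 ± 1.82 CPM (17W; SD, n = 3 each; adjusted p = 0.521).

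A few of these calls hang on single libraries. LNK1 fell by 0.24 (log2, adjusted p = 0.00953) at 9W against 8W, and the log2 difference was -0.21 without 9W library 2 and -0.19 without 8W library 3, neither past the threshold. It fell by 0.21 (adjusted p = 0.0293) at 13W against 11W, and this call was lost at -0.07 without 11W library 1, at -0.20 without 13W library 2 and at -0.19 without 13W library 3. REVEILLE 1 on 2S rose by 0.21 (adjusted p = 0.032) at 17W against 15W, and this call was lost at 0.17 and 0.21 without 17W library 2 or 3 and at 0.12 without 15W library 3. REVEILLE 5 fell by 0.31 (adjusted p = 0.00705) in the same step, and its call was lost at -0.25 without 17W library 1 and at -0.22 without 15W library 2.

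The shares of paired copies outside the 9 genes also differed between stages. REVEILLE 1 on 2D held 86.1% ± 0.19 of the REVEILLE 1 reads at 9W and 86.1% ± 0.646 at 13W (SD, n = 3 each), the stages of the LNK3 3S peaks, and between 47.1% and 61.4% at the other 5 stages. REVEILLE 7 on 8D held 71.8% ± 1.67 of the REVEILLE 7 reads at 13W and between 25.4% and 46.0% at the others.

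Genes of the evening loop and the pseudo-response regulators, which in Arabidopsis are targets and repressors of the morning genes, were described from a list of 24 genes, of which 21 were tested. Their calls ran in both directions at each step. At 9W against 8W, 8 rose (38.1%, beside 34.4% of all genes tested) and 7 fell (33.3%, beside 31.1%). At 11W against 9W, 10 rose (47.6%, beside 34.3%) and 8 fell (38.1%, beside 31.6%). At 13W against 11W, 10 rose (47.6%, beside 32.1%) and 5 fell (23.8%, beside 35%), and at 15W against 13W, 10 rose (beside 24.8%) and 5 fell (beside 26.3%). At 17W against 15W, 2 rose (9.52%, beside 29.3%) and 14 fell (66.7%, beside 30.8%), with a median log2 difference of -0.35, beside -0.03 over all genes. At 19W against 17W, 9 rose (42.9%, beside 28.5%) and 5 fell (23.8%, beside 26.1%). GIGANTEA on 8S (Jr8SG00007700), a regulator of clock protein stability and flowering, had its highest mean at 8W, where LHY on 1D was low. Its 8W and 15W libraries overlapped, with 656, 640 and 701 CPM (8W) and 646, 577 and 587 CPM (15W). The copy on 8D had its highest mean at 15W, with 522 CPM, and had 463 CPM at 8W. GIGANTEA on 8S had 339 ± 29.2 CPM in 9W libraries and 666 ± 31.4 CPM in 8W libraries (SD, n = 3 each). For 9W against 8W its log2 difference was -0.97 (SE 0.0734, adjusted p = 5.46e-11). GIGANTEA on 8D (Jr8DG00011600) also fell in that step, by 0.56 (adjusted p = 4.28e-07), and both rose at 11W against 9W, by 0.37 and 0.31 (adjusted p = 0.000113 and 0.0007), though on 8D not with library sizes alone, at 0.17. In these steps LHY on 1D differed in the other direction. In others it did not: both GIGANTEA genes rose at 13W against 11W, by 0.27 on 8S and 0.37 on 8D (adjusted p = 0.00217 and 9.96e-05), and fell at 17W against 15W, by 0.31 and 0.35 (adjusted p = 0.000853 and 0.000251), as LHY on 1D was higher and lower there. Adagio protein 3 (Jr3SG00060500), a blue light receptor, rose by 1.70 (SE 0.109, adjusted p = 3.22e-11) at 15W against 13W, where the 9 genes had lower means. In its other called steps it differed in the direction of LHY on 1D. These log2 differences were 0.54 (9W against 8W), -0.52 (11W against 9W), -1.58 (17W against 15W) and 0.70 (19W against 17W). At 13W against 11W it was not called (adjusted p = 0.388). PRR73 (Jr1DG00283200) had a range of 1.65-fold over the stages. It fell only at 17W against 15W, by 0.43 (adjusted p = 3.26e-05), and rose only at 19W against 17W, by 0.73 (adjusted p = 2.33e-08).

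**Figure D4:**
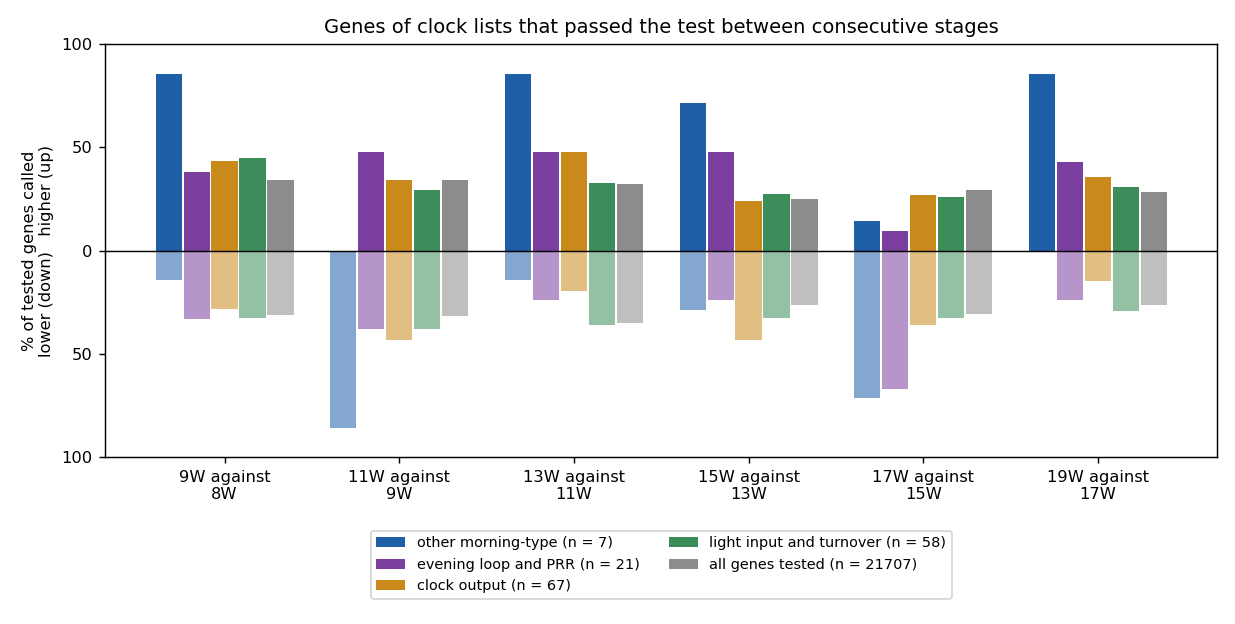
Share of the tested genes of each list that passed the test in each consecutive stage contrast (% of tested genes, higher drawn up and lower drawn down from 0), with all 21707 genes tested in grey. The 7 further REVEILLE and LNK genes show 6 higher and 1 lower at 9W against 8W and 0 higher and 6 lower at 11W against 9W.

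Clock output genes (77 listed, 67 tested) and genes of light input and clock protein turnover (59 listed, 58 tested) gave calls in both directions in each step. Of the output genes, 29 rose (43.3%) and 19 fell (28.4%) at 9W against 8W, 23 rose (34.3%) and 29 fell (43.3%) at 11W against 9W, 32 rose (47.8%) and 13 fell (19.4%) at 13W against 11W. In the later steps, 16 rose (23.9%) and 29 fell (43.3%) at 15W against 13W, 18 rose (26.9%) and 24 fell (35.8%) at 17W against 15W, 24 rose (35.8%) and 10 fell (14.9%) at 19W against 17W. Of the light input genes, 26 rose (44.8%) and 19 fell (32.8%) at 9W against 8W, 17 rose (29.3%) and 22 fell (37.9%) at 11W against 9W, 19 rose (32.8%) and 21 fell (36.2%) at 13W against 11W. In the later steps, 16 rose (27.6%) and 19 fell (32.8%) at 15W against 13W, 15 rose (25.9%) and 19 fell (32.8%) at 17W against 15W, 18 rose (31%) and 17 fell (29.3%) at 19W against 17W. The shares of all genes tested, given above, were 24.8% to 34.4% higher and 26.1% to 35% lower over the 6 steps. CRYPTOCHROME-1 (Jr4SG00045200), a blue light receptor, had 448 ± 9.67 CPM in 13W libraries and 120 ± 18.2 CPM in 11W libraries (SD, n = 3 each), a log2 difference of 1.90 (SE 0.109, adjusted p = 1.29e-12). TIME FOR COFFEE (Jr1DG00180300), a clock regulator in Arabidopsis, rose by 1.16 (SE 0.0706, adjusted p = 1.2e-12) in the same step. It fell by 0.55 at 11W against 9W and by 0.99 at 15W against 13W, as LHY on 1D was lower there. But it was not called at 9W against 8W (adjusted p = 0.53). It rose by 0.38 at 17W against 15W (adjusted p = 4.89e-05), where LHY on 1D was lower. The 3 named of 21 listed glycine-rich RNA-binding genes, a family with clock-regulated members in Arabidopsis, also rose at 13W against 11W. They rose by 1.23 on 7D (Jr7DG00022500), 1.06 on 3D (Jr3DG00058000) and 0.98 on 3S (Jr3SG00143700). At 17W against 15W these 3 rose, by 0.18, 1.10 and 0.58, and at 19W against 17W they fell, by 0.38, 1.81 and 1.27, where the 9 genes were lower and higher. The call on 7D at 17W against 15W was lost at 0.15 without 17W library 2. Of the 19 tested genes of the family, 6 rose and 7 fell at 13W against 11W. The casein kinase II genes (Jr1DG00007100, Jr7SG00018400), whose Arabidopsis relatives phosphorylate CCA1, had ranges of 1.91-fold and 2.02-fold over the stages. Both fell at 9W against 8W, by 0.81 and 0.88, and rose at 11W against 9W, by 0.62 and 0.29, unlike LHY on 1D. The call at 0.29 was lost with library sizes alone, at 0.14. Both also fell at 17W against 15W, by 0.47 and 0.91, where LHY on 1D was lower too (adjusted p = 0.000286 or lower in each). The cold-response factor gene DREB1D (Jr2DG00092800) did not follow LHY, with a mean of 2.69 CPM at 8W and of 1070 CPM by 17W. The share of all calls that were higher moved by over 10 percentage points with the scaling in 2 steps and by less in the others: 52% of calls were higher at 11W against 9W and 52.2% at 19W against 17W with TMM, but 41.8% and 41.6% with library sizes alone.

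Likeness to LHY on 1D was measured as Pearson's r of log2(scaled CPM + 1) over the 21 libraries. All genes share the depth and stage of each library, so likeness is a description only. The second 1S model of LHY was the most like of 16247 genes (r = 0.98), LNK2 on 7S was the 17th (r = 0.93), REVEILLE 1 on 2D the 19th (r = 0.92) and the first 1S model the 27th (r = 0.92). REVEILLE 8 had r = 0.78, LNK3 on 3S 0.75, REVEILLE 6 0.59 on 3D and 0.36 on 3S, and LNK2 on 7D 0.33. Among named genes outside the 9, the 10 most like LHY on 1D had r of 0.93 to 0.97. They were genes named AP-1 complex subunit sigma-2, HUA2-LIKE 2, BRE1-like 1, CONSTANS-LIKE 9-like, a PP1 protein phosphatase, FTSH 1, BAG6, KDEL motif-containing protein 1, LITTLE ZIPPER 4-like and CHR11. The range over stages was 26-fold for CONSTANS-LIKE 9-like (Jr6DG00179900, named B-box 32 by Swiss-Prot) and 1.62-fold to 4.61-fold for the other 9. The 10 most opposite to LHY on 1D had r of -0.95 to -0.90 and ranges of 1.75-fold to 4.14-fold. They were named heat shock 70 kDa protein 16, ERD6-like 6, adenylate kinase 4, BIM2-like, translin-associated protein X-like, XBAT31, AGD9, UPF0496 protein, RAR1 and fasciclin-like arabinogalactan protein 4.

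The seed coat identity gene AGL11 (Jr2DG00016900) was present at every stage, between 329 ± 25.3 CPM (9W) and 935 ± 62.6 CPM (19W; SD, n = 3 each), and 2 of 35 seed coat markers had 0 reads in all libraries. The summed level of the 35 markers was 886 to 913 CPM (8W), 892 to 974 (9W), 647 to 777 (11W), 989 to 1133 (13W), 1120 to 1172 (15W), 642 to 679 (17W) and 1262 to 1426 (19W). This sum was lowest at 17W and 11W, where LHY on 1D was low too. The sums of 8W and 9W overlapped, and LHY on 1D was low at 8W and highest at 9W. Levels of genes listed by name for other tissue also differed between stages. For the kernel, 45 genes matched seed storage or late embryogenesis names. Some matched only through a superfamily name, such as NDR1/HIN1-like proteins and putative lipid-transfer proteins. The summed level of the 45, of which 4 were at 0 throughout, was 206 to 367 CPM (8W), 1110 to 1481 (9W), 13637 to 28171 (11W), 5134 to 15364 (13W), 9740 to 13022 (15W), 4535 to 7151 (17W) and 18727 to 23408 (19W). The most abundant of them, a vicilin-like gene (Jr1DG00211500), had a mean of 42 CPM at 8W and of 10747 CPM by 19W. The sum of 53 photosynthesis genes, of which 4 were at 0 throughout, was 775 to 945 CPM (8W), 566 to 585 (9W), 1169 to 1706 (11W), 1069 to 1170 (13W), 1112 to 1180 (15W), 574 to 577 (17W) and 914 to 1012 (19W). LHY on 1D was high at 9W and low at 17W, and the photosynthesis sum was near 575 CPM at both. The part of the seed coat and of these other tissues in the levels of the 9 genes was not tested.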

How the data were processed

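Of 7 pellicle stages, 3 libraries each were sequenced. The submitters' processing notes name FastQC, HISAT2, Cufflinks and DESeq2. What each did, the genome build, the annotation, the read counter and any use of strand in counting: not given in the sources used here. Per the file headers, the deposited values are raw read counts of each gene in each library, which are whole numbers and not normalized. Beside them stand FPKM values, which the authors computed from those counts: dividing a count by gene length and library total returned the deposited FPKM to within a relative deviation of 5.11e-15. Unmapped sample columns numbered 0, and 0 gene IDs were found in the separate reference gene table.

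Of 31425 genes, 5183 had no read in any of the 21 libraries (0 reads), and 21707 passed filterByExpr (minimum count 10). Replicate pairs lay further apart than sampling noise allows (chi-square over degrees of freedom 3.07 to 27), so none were merged. Scaled CPM are counts over the library total times its TMM factor, in the usual CPM units. edgeR 4.0.16 in R 4.3.3 fitted a quasi-likelihood model (robust, 1 coefficient for each stage) to all 21 libraries. Consecutive stages were compared by 2-sided contrasts. Benjamini-Hochberg adjustment covered every gene tested, and calls were made at 0.05. The procedure was tested on simulated data.

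The 9 genes and all gene lists were chosen with earlier results of these data known. The 9 were chosen for their read counts over the stages, so they carry no test here. Lists take genes by NR or Swiss-Prot name, leaving out unlike matches (a tRNA nucleotidyltransferase, chloroplast translocases). The rule for genes to name takes the 9 genes, every other gene named LHY, CCA1, REVEILLE or LNK, the 4 tested members of each further clock list with the highest scaled CPM per kb, the 10 named genes most like and the 10 most opposite to the LHY copy with the most reads, and the member of each tissue list with the most reads. Likeness is Pearson's r of log2(scaled CPM + 1) over 21 libraries, among tested genes with at least 10 CPM in their highest stage. Tried as alternatives were RLE factors, upper-quartile factors, library sizes alone, a filter of 1 CPM in 3 libraries, all genes with a read, DESeq2 1.42.0, a replicate block, a fit of only the 6 libraries compared, each library left out in turn, the lists with unlike matches kept (added after seeing the data), the deposited FPKM, Spearman's rho, a pseudocount of 0.1 and stage means.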

Additional observations from a re-analysis of the deposited data

How the results depend on the processing

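Of 1059 recomputed ranges, stages of highest and lowest level, shares and counts, 1027 stayed within 1.5 times of the count or within 1 SD, and 32 moved; the causes were not tested. With upper-quartile factors, library sizes alone and the deposited FPKM, the lowest stage of LHY on 1D (Jr1DG00089700) was week 11 in place of week 8, and the highest stages of the first 1S model (Jr1SG00053700) and of LNK2 on 7S (Jr7SG00008900) were week 9 in place of weeks 13 and 19. With library sizes alone and FPKM, the range was 2.56-fold for REVEILLE 6 on 3D (Jr3DG00241000), 1.9-fold on 3S (Jr3SG00003200) and 4.14-fold for REVEILLE 8 (Jr5DG00172600), whose highest stage was then week 9 in place of week 13; with upper-quartile factors REVEILLE 8 had 4.36-fold. Of the 7 further REVEILLE and LNK genes, 0 in place of 1 were called lower at 13W against 11W in a fit of 6 libraries, and 0 in place of 1 were called higher at 17W against 15W with upper-quartile factors. Leaving out 1 library at a time gave 0 to 1 called lower at 9W against 8W and at 13W against 11W, and 0 to 1 called higher at 17W against 15W. Leaving out a replicate number gave a lowest stage of week 8 to 11 for LHY on 1D, week 9 to 11 for REVEILLE 6 on 3S and week 11 to 17 for LNK2 on 7S, whose highest stage ran from week 9 to 19. For the 19 tested genes named from the lists, 1596 recomputed log2 differences gave 0 changes of direction in a call, 40 lost calls and 14 gained. Of the 10 genes most like LHY on 1D, 2 stayed among the 10 with Spearman's rho, 6 with library sizes alone, 5 with stage means and 9 with a pseudocount of 0.1.

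Replicate numbers showed no sign of pairing the samples: same-numbered libraries of consecutive stages correlated at -0.0744 to 0.105 in their deviations from the stage means. Deviations from means of only 3 libraries cannot exclude a pairing. A library correlated best with its own number in the neighbouring stage in 13 of 36 cases, and in 0 of the 6 steps did all 6 libraries do so. With the replicate number as a block, the 7 genes gave 6 higher and 1 lower at 9W against 8W and 0 higher and 6 lower at 11W against 9W, as without it, and 21186 genes in place of 21214 differed over the 7 stages (all genes tested).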

Other observations

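Further clock genes were looked at after their values had been seen, so they are given as values outside the rule for naming genes. Because they were picked with their profiles known, their adjusted p-values are no support for following or opposing LHY. The same holds for the cyclic dof factors below. Of the 4 genes that Swiss-Prot names APRR5 (by NR 2 are pseudo-response regulator 9 and 2 are 5), relatives of Arabidopsis repressors of LHY and CCA1, all 4 rose at 9W against 8W, fell at 11W against 9W, rose at 13W against 11W, fell at 17W against 15W and rose at 19W against 17W (edgeR, adjusted p = 0.0273 or lower in each). Of all genes tested, 34.4% rose, 31.6% fell, 32.1% rose, 30.8% fell and 28.5% rose in these steps. At 15W against 13W, where LHY on 1D was lower, 3 of the 4 rose, by 0.23, 0.32 and 0.43 on the log2 scale, and 1 fell, by 1.06. In that step 24.8% of all genes rose and 26.3% fell. The APRR5 copy on 1S (Jr1SG00052800) had means of 24.0, 114, 11.2, 68.7, 86.0, 17.8 and 100 CPM from 8W to 19W. Of 2 genes named APRR1, the evening gene TOC1, Jr6SG00019000 had 31 reads over all libraries and was not tested. The other, Jr6DG00046500, had means of 75.1, 24.3, 50.3, 95.5, 70.6, 55.2 and 37.7 CPM, lowest at 9W, where LHY on 1D was highest, and highest at 13W, where LHY on 1D was high too. Swiss-Prot names 2 genes BOA, a relative of the evening factor LUX, and NR names both PCL1. Of these, Jr7DG00088200 had means of 15.6, 2.71, 32.5, 7.57, 8.82, 5.04 and 7.96 CPM from 8W to 19W. It fell by 2.52 on the log2 scale at 9W against 8W (adjusted p = 3.98e-11) and rose by 3.58 at 11W against 9W (adjusted p = 6.51e-14). At 13W against 11W it fell by 2.10 (adjusted p = 1.41e-10). LHY on 1D differed by 4.13, -4.08 and 3.27 in these steps. But at 17W against 15W Jr7DG00088200 fell by 0.81 (adjusted p = 0.000735). At 19W against 17W it rose by 0.66 (adjusted p = 0.00546), and both were the directions of LHY on 1D. Its r with LHY on 1D was -0.80. The other BOA gene, Jr7SG00068200, had r of -0.28 and means of 7.2, 5.31, 18.3, 7.49, 23.7, 15 and 12.8 CPM.

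Cyclic dof factors are repressors of CONSTANS whose transcripts peak in the morning in Arabidopsis. Of the 6 genes with that name that were ranked for likeness to LHY on 1D, 4 had r of 0.84 to 0.92. Cyclic dof factor 3 on 2D (Jr2DG00022600) had means of 13.9, 185, 13.5, 358, 129, 40.7 and 97.3 CPM from 8W to 19W. The other 2 of the 6 had r of 0.08 and 0.18 and were not called at 9W against 8W (adjusted p = 0.288 and 0.419).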
